A study of Mus musculus with 6 samples.

Results

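The regions described here are stretches of the mouse genome that were called accessible in 2 or 3 of the 3 libraries from cFos-infected dentate gyrus and in none of the 3 from EYFP-infected dentate gyrus, once all 6 peak lists had been brought to the same length. There were 2412 of them among 48217 merged regions, or 5.0%. They were chosen by the calls of all 6 libraries, so the presence of cFos calls and the absence of EYFP calls is how they were found and is no result; nothing below is supported with it, and no test was run. Of the 2412, 452 were called in all 3 cFos lists (0.937% of the merged regions) and 1960 in 2 of them. The opposite choice, regions called in 2 or 3 EYFP lists and no cFos list, gave 2671 regions (5.54%), of which 650 were called in all 3 EYFP lists (1.35%).

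Dentate gyri were microdissected from adult mice of 8 weeks that had been infected with adeno-associated virus (AAV), and ATAC-seq libraries were made from single animals, 3 in the EYFP_OE group and 3 in the cFos_OE group. Every animal of both groups carried virus, and the protocol text, which names EYFP "and/or" cFos, does not say whether cFos animals also received EYFP. The strain label reads C57BL/6 for EYFP replicate 1 and ends in a different number for each of the other samples. Neither the promoter that drives the viral insert nor the share of cells infected is stated in the sources used here. The dissected tissue holds granule cells together with interneurons, glia and vessels; in such bulk tissue, fewer cells with an open site and a less open site in each cell cannot be told apart. Genes and DNA sequence could not be placed on these regions, because the peaks are on mm9 and no mm9 reference was used here, so the tissue was not checked against its marker genes and regions are named by position.

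In ATAC-seq the transposase Tn5 cuts where DNA is not wrapped in nucleosomes, and a peak caller reports the places where cuts pile up. cFos is an immediate-early transcription factor that neurons make after strong activity. It pairs with Jun proteins to form AP-1, which binds DNA largely at enhancers, and AP-1 is known in several cell types to take part in opening such sites. Granule cells, the principal neurons of the dentate gyrus, fire sparsely, and EYFP, a fluorescent protein, was the control insert.

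On chromosomes 1 to 19 and X the full lists held 29896, 44285 and 33026 peaks in EYFP replicates 1 to 3 and 26715, 23986 and 34690 in cFos replicates 1 to 3. The shared length was therefore 23986 peaks, the whole list of cFos replicate 2. Keeping the highest scores put the lowest score kept at 60, 95.66 and 65.66 in EYFP replicates 1 to 3 and at 54.13, 50 and 68.22 in cFos replicates 1 to 3. Scores were given by the authors' peak caller, ran from 50 to 3100 and serve here to rank peaks within a list; they were not normalized between libraries, so scores of different libraries are printed side by side as values and compared by percentile only. Read depth was unknown, so the lack of a call in a library does not show that the site was closed in it.

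These cFos-leaning regions, the members of the set, were shared unevenly among the cFos libraries. Replicates 2 and 3 alone called 966 (40.0%), replicates 1 and 3 alone 558 (23.1%), replicates 1 and 2 alone 436 (18.1%), and all 3 together 452 (18.7%). cFos replicate 1 thus called 1446 of the 2412, replicate 2 called 1854 and replicate 3 called 1976. For the regions that a cFos library had missed at the shared length, its full list could still hold a weaker peak. That was so for 129 of the 436 missed by replicate 3 and for 38 of the 966 missed by replicate 1. Replicate 2 had no peaks below its limit, so it could show none for the 558 it missed.

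Most of the regions carried weak peaks even where they were called. The percentile of a peak is its rank within the 23986 peaks of its library, with 100 at the top. The median percentile of the regions was 29.5 in cFos replicate 1, 37.3 in replicate 2 and 32.8 in replicate 3, with median scores of 71.47, 71.435 and 98.755. Between 69.8% and 82.6% of the calls lay under the median peak of their library. Regions of the EYFP direction lay lower still in the EYFP lists, at median percentiles of 29.0, 24.5 and 28.2. Averaged over the 3 cFos libraries, with 0 where a library did not call the region, 16 of the 2412 reached a mean percentile of 70 and 50 were at or above the median peak in all 3. A peak at or above the 90th percentile was found in 2 regions in replicate 2, in 2 in replicate 3 and in none in replicate 1.

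The strongest region of the set lay at chr12:86816478-86817602 (mm9), with scores of 148.78, 508.39 and 578.53 in cFos replicates 1 to 3 and no peak in any full EYFP list. Its mean percentile was 88.2 ± 15.5 (SD, n = 3), the highest in the set. Only 284 bp away was a second member at chr12:86815594-86816193, scoring 163.65, 96.87 and 163.51. One more lay within 100 kb at chr12:86910450-86911084, with scores of 60.37, 63.44 and 106.77 and weak peaks of 52.64 and 58.14 in the full lists of EYFP replicates 1 and 2. Beside the second member, toward lower coordinates, lay chr12:86814246-86815324, which was no member. It was called in all 3 EYFP lists (141.07, 291.32 and 160.22) and in cFos replicates 1 and 3 (139.46 and 146.57). The stretch was thus not called in cFos libraries only. In the strongest region the percentile was 70.3 in replicate 1, below the 97.6 and 96.5 in replicates 2 and 3. Where these regions lie relative to any gene, and whether sequence carried by the virus contributed reads to them, was not tested.

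The next 4 by mean percentile lay on chromosomes 13, 3 and 1. The region at chr13:17930802-17931818 scored 148.25, 243.99 and 280.59 in cFos replicates 1 to 3, and it was one of the 2 in the first 10 with weak EYFP peaks, at 52.65 in replicate 1 and 94.34 in replicate 2. The region at chr13:75558005-75558640 scored 139.53, 263 and 253.66, with no peak in a full EYFP list. The one at chr3:92289504-92290301 scored 136.86, 241.59 and 269, and the one at chr1:70668163-70668896 scored 147.48, 193.43 and 274.96, both with no EYFP peak. In each of these 4 the percentile was lowest in replicate 1, from 67.2 to 70.2, and highest in replicate 2, from 82.1 to 88.9. Mean percentiles ran from 77.8 ± 6.84 for the chromosome 1 region to 79.8 ± 8.78 for the first chromosome 13 region (SD, n = 3).

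The rest of the first 10 had mean percentiles from 73.3 to 77.2. The region at chr6:47689036-47691359 was the only one of the 10 that ranked highest in replicate 1, with scores of 224.46, 174.49 and 190.93 and percentiles of 83.2, 79.3 and 69.0. The region at chr1:145383780-145384491 scored 137.73, 169.6 and 301.18. At chr5:40637899-40638490 the scores were 152.95, 270.76 and 162.43, beside a weak peak of 68.33 in EYFP replicate 2. By percentile, replicate 2 was the highest library in 8 of the 10 regions, this one included, and replicate 3 in 1, at chr1:145383780-145384491. The region at chr3:159323609-159324233 scored 137.12, 169.22 and 233.79, and that at chr6:17928244-17929154 scored 125.76, 169.61 and 244.68. Neither had an EYFP peak, and in both the percentile was highest in replicate 2 (78.4 and 78.5) and lowest in replicate 1 (67.3 and 63.7). Of the 10 regions, 8 had no peak in any full EYFP list.

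**Figure D1:**
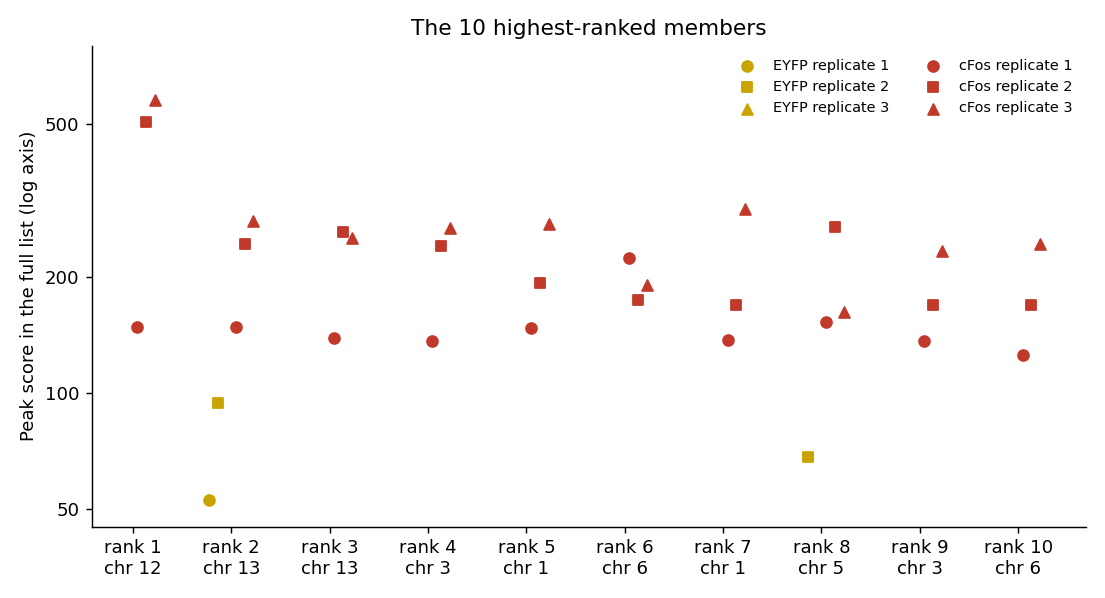
Score of the highest peak in each of the 6 full lists (log axis) for the 10 highest-ranked regions; red symbols are cFos libraries, yellow symbols EYFP libraries, and a library with no peak has no symbol (scores are not normalized between libraries). All cFos scores lie at 125.76 or above, and EYFP peaks appear only in the regions ranked 2 and 8, at 52.65, 94.34 and 68.33.

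Among the regions called in 2 cFos lists, the 5 highest were all called in replicates 2 and 3 and missed by replicate 1. They were chr6:47712475-47715051 with scores of 327.76 and 355.15, chr18:70550733-70551573 with 168.99 and 479.25, and chr1:40415565-40416269 with 137.14 and 387.25. The other 2 were chr15:23511540-23512090 with 226.7 and 228.11, and chr10:105632128-105633002 with 163.91 and 294.53. None of the 5 had a peak in the full list of cFos replicate 1. The chromosome 6 region alone had an EYFP peak, of 86.4 in replicate 2. With the chromosome 12 region above, it was one of the 2 that passed the 90th percentile in cFos replicate 2 (92.7), and the chromosome 18 region was one of the 2 that did so in replicate 3 (94.0).

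Many of the regions did have a weak peak in a full EYFP list, below the shared length. A weak peak was present in at least 1 EYFP library for 1090 of the 2412 regions (45.2%), and 1322 (54.8%) had none. By number of EYFP libraries, 762 regions had a weak peak in 1, 287 in 2 and 41 in all 3. The share was 49.8% among regions called in all 3 cFos lists and 35.8% among those called by replicates 2 and 3 alone, against 53.4% for replicates 1 and 2 and 51.3% for replicates 1 and 3. On the full lists, 308 of the regions were called in 3 cFos and no EYFP libraries, and 13 were called in all 6.

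The weak peaks came mostly from EYFP replicate 2, whose full list is the longest. It held a weak peak in 855 of the regions (35.4%), against 358 (14.8%) in EYFP replicate 3 and 246 (10.2%) in EYFP replicate 1. These libraries had 20299, 9040 and 5910 peaks below the limit. The median score of the weak peaks was 68.96, 57.03 and 54.73, close to that of all peaks below the limit in the same library (65.31, 56.58 and 54.54). Without EYFP replicate 2 among the lists, the share of regions with a weak EYFP peak was 29.0%.

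Mixed choices of libraries give a yardstick for these counts. Any 3 of the 6 lists can be treated as the present ones and the other 3 as the absent ones, which makes 20 choices: the cFos choice, the EYFP choice, and 18 that mix the groups. The mixed choices gave between 1266 and 1829 regions, or 2.63% to 3.79% of the merged regions, against 2412 for the cFos and 2671 for the EYFP choice. The number called in all 3 present lists was 111 to 304 in mixed choices, against 452 and 650. As a share of the regions chosen, that was 8.77% to 17.8% in mixed choices, 18.7% in the cFos and 24.3% in the EYFP choice. These choices share libraries and are given as a description. With lists of 11993 peaks the cFos choice gave 1064 regions, the EYFP choice 975 and the mixed choices 512 to 769.

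**Figure D2:**
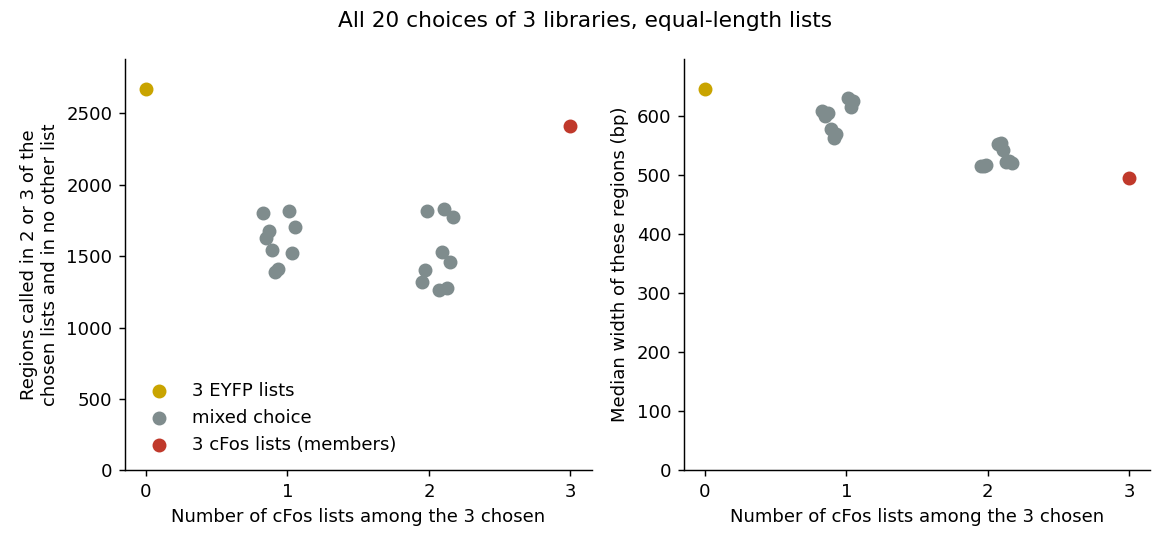
Each point is 1 of the 20 choices of 3 present libraries on equal-length lists, placed by how many of the 3 are cFos libraries (points are offset sideways); the left panel gives the number of regions called in 2 or 3 of the present and none of the absent lists, the right panel the median width of those regions in bp. The cFos choice (red, 2412 regions) and the EYFP choice (yellow, 2671) lie above the 18 mixed choices (1266 to 1829), and the median width is 646 bp with 0 cFos lists and 494.5 bp with 3.

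Weak peaks in an absent EYFP library were less frequent at the cFos-leaning regions than in any mixed choice that left out the same library. Every mixed choice had an EYFP list among its present lists and the cFos choice had none. The order is therefore not independent of how the regions were chosen. In EYFP replicate 1 the share was 10.2%, against 11.8% to 21.9% in the 9 mixed choices. In EYFP replicate 2 it was 35.4% against 42.4% to 64.5%, and in EYFP replicate 3 it was 14.8% against 17.0% to 30.3%. The order was the same on lists of 11993 peaks, where the shares were 54.7%, 75.3% and 59.4% and the lowest mixed values 58.6%, 76.1% and 61.8%. The EYFP direction was not below all mixed choices in the cFos lists. Its share with a weak peak was 6.81% in cFos replicate 1, above 6 of 9 mixed choices. In cFos replicate 3 it was 26.1%, above 2 of 9. cFos replicate 2 had no peaks below the limit and could show none. cFos replicates 1 and 3 had 2729 and 10704 such peaks, against 5910, 20299 and 9040 in EYFP replicates 1 to 3. The list of cFos replicate 3 was thus longer below the limit than those of EYFP replicates 1 and 3. Over all 3 absent libraries together, the cFos-leaning share of 45.2% lay inside the mixed range of 27.4% to 72.3%, which depends on which libraries are absent.

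**Figure D3:**
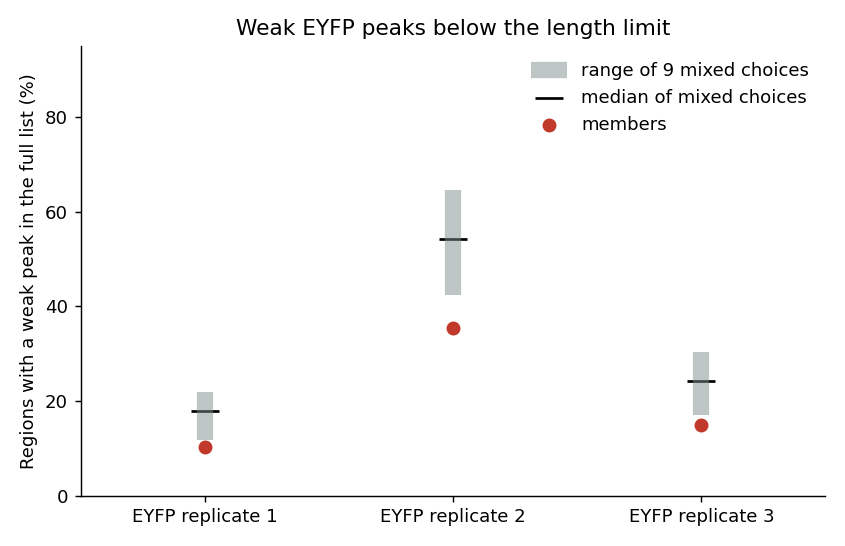
Share of regions with a weak peak in the full list of each EYFP library (%); red points are the cFos-leaning regions, grey bars the range and black lines the median over the 9 mixed choices in which that library is absent. The red points (10.2%, 35.4% and 14.8%) lie below the lower end of each grey bar (11.8%, 42.4% and 17.0%).

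Calls at the shared length were then looked up in libraries whose own calls were not used in the choice. Peaks of these libraries still shaped the merged regions, which were built from all the lists, and cFos replicate 2 set the shared length. The look-up is therefore not an independent check of the regions. Regions were chosen as called in 2 cFos lists and in neither of 2 EYFP lists, and the share of them called was taken in the cFos and the EYFP library left out. Over the 9 such pairs, the cFos library left out called between 35.2% and 54.1% of the chosen regions (median 46.0%), and the EYFP library left out called between 18.7% and 28.4% (median 24.7%). The cFos share was the higher in 9 of 9 pairs, by 14.7 to 28.6 percentage points. It depended on the library: cFos replicate 1 called 35.2% to 36.3%, replicate 2 called 45.8% to 47.6% and replicate 3 called 52.2% to 54.1%. In the EYFP direction both shares were higher in the median, at 51.9% to 60.6% (median 53.8%) in the EYFP library left out and 29.8% to 38.2% (median 33.7%) in the cFos library left out, with differences of 16.0 to 29.0 points. The pairs share libraries, so no p-value is attached. The share of all merged regions that each library called is not given beside these values. They therefore compare the 2 libraries left out only within the chosen regions, which the other cFos lists had called and the other EYFP lists had not. Whether a cFos library left out called more of the chosen regions than of all merged regions is not shown. On the lists as deposited, whose lengths differ, the median difference in the cFos direction was 15.6 points.

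At the limit of the lists, membership turned on small differences in score. Just inside, the region at chr15:28446904-28447247 had a peak of 65.66 in the full list of EYFP replicate 3, the same value as the lowest score kept there, and stayed in only through the order of ties. Its cFos scores were 52.62 in replicate 2 and 75.03 in replicate 3. The closest in the other EYFP libraries were chr13:105737935-105738502, with 59.92 in replicate 1, and chr10:8520827-8521380, with 95.52 in replicate 2. Just outside, chr3:68480635-68481237 scored 65.75 in EYFP replicate 3 and 120.38, 70.12 and 136.13 in cFos replicates 1 to 3. Likewise outside were chr4:57620400-57620930, with 60.09 in EYFP replicate 1, and chr16:91962717-91963316, with 95.68 in EYFP replicate 2. In all, 676, 690 and 622 of the 48217 merged regions met the cFos condition and were called in EYFP replicate 1, 2 or 3 only. On the cFos side, 284, 275 and 290 calls of members in replicates 1 to 3 lay within 10% of the lowest score kept. These were 19.6%, 14.8% and 14.7% of the member calls of each library. The same share of all kept peaks is not given, so this is no trait shown to be particular to the members.

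The regions were narrow. Their median merged width was 494.5 bp, with 371 and 703 bp at the 10th and 90th percentiles, against 646 bp in the EYFP direction and 1174 bp for the 10521 regions called in all 6 lists. Regions called in all 3 cFos lists had a median of 559 bp and those called in 2 lists 483 bp. Regions called in 3 and in 2 lists drawn from both groups had medians of 639 bp and 557.5 bp. Only 38 of the 2412 (1.58%) were 1 kb or wider, against 223 of 2671 (8.35%) in the EYFP direction. Together the cFos-leaning regions covered 1.27 Mb.

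Peaks of the cFos libraries were narrower throughout. The median width of the regions was lower than in all 18 mixed choices, where it was 515 to 555 bp with 2 cFos lists present and 563 to 631 bp with 1. All peaks of the cFos libraries had medians of 485, 479 and 520 bp in replicates 1 to 3, against 626, 747 and 640 bp in the EYFP libraries. Within the cFos-leaning regions the cFos peaks measured 379.5, 408 and 436 bp, so they were narrower than the other peaks of their own libraries. EYFP peaks in the EYFP direction were likewise narrower than the rest, at 522, 589 and 524 bp. When all peaks were given the same width of 400 bp, the median region width was 456 bp, inside the mixed range of 454 to 470.5 bp.

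A few regions were much wider. The widest was chr6:47604695-47607687, 2993 bp, with cFos scores of 117.02, 132.26 and 303.71 and no EYFP peak. The next 2 were on chromosome 1, chr1:87520283-87523233 (2951 bp) and chr1:84989221-84992004 (2784 bp). The first of these scored 65.84 and 58 in cFos replicates 1 and 2, with weak peaks of 68.12 in cFos replicate 3 and 56.17 in EYFP replicate 1. The other scored 110.2 and 135.03 in cFos replicates 1 and 2, had no peak in cFos replicate 3, and had a weak peak of 52.49 in EYFP replicate 1.

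Toward lower coordinates from the widest region lay chr6:47600494-47602419 (1926 bp), which was called in EYFP replicate 3 alone (67.91). It had weak peaks of 64.48 in EYFP replicate 2 and 53.06 in cFos replicate 3. Toward higher coordinates from the widest region lay 3 more cFos-leaning regions, which were examined after the widths had been seen. Going up the chromosome they were chr6:47689036-47691359 (2324 bp) and chr6:47712475-47715051 (2577 bp), both described above, and chr6:47717120-47718724 (1605 bp). The last had scores of 64.42 and 76.44 in cFos replicates 2 and 3, a weak peak of 54 in cFos replicate 1 and a weak peak of 59.52 in EYFP replicate 3. Between the widest region and the first of these lay a still wider one, chr6:47630654-47637092 (6439 bp), that was no member because EYFP replicate 3 called it. Its scores were 254, 319.88 and 421.58 in cFos replicates 1 to 3, 329.78 in EYFP replicate 3, and none in EYFP replicates 1 and 2. The EYFP libraries thus differed among themselves at this region. A further region, chr6:47701685-47704462 (2778 bp), was called in cFos replicate 2 alone (97.7).

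Next to these, regions called in all 6 lists began at chr6:47719904-47723383. That region scored 287.89, 130.49 and 340.42 in EYFP replicates 1 to 3 and 214.51, 307.09 and 423.08 in cFos replicates 1 to 3. The following one, chr6:47727859-47728900, scored 526.41, 666 and 429.73 in EYFP and 467.44, 348.61 and 437.85 in cFos libraries. Both were thus called next to the cFos-leaning regions in every library. Whether the stretch holds repeated sequence, to which reads align ambiguously, was not tested.

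**Figure D4:**
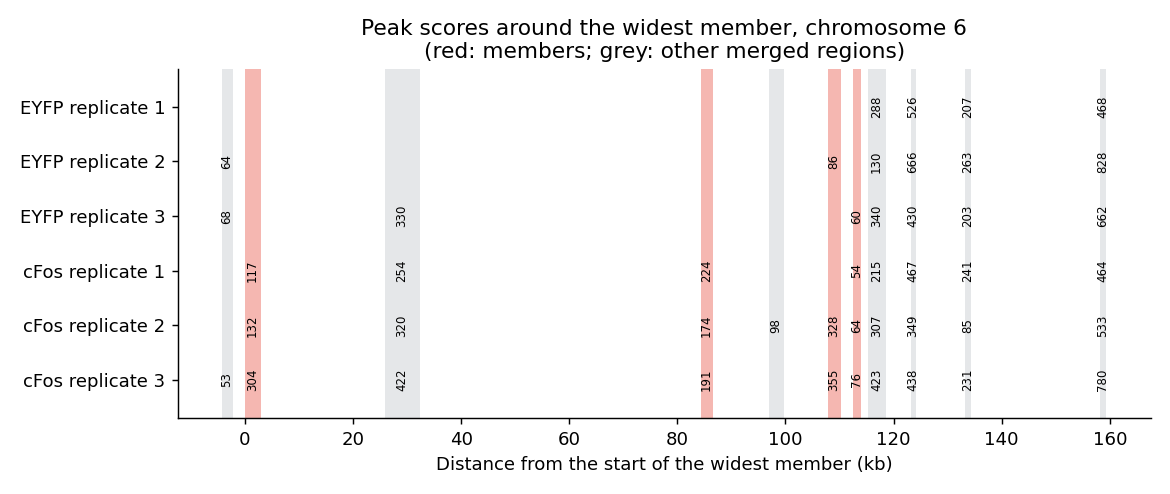
Scores in each of the 6 full lists (numbers, rounded) around the widest cFos-leaning region, against distance from its start in kb; red bands are cFos-leaning regions, grey bands other merged regions, at their true width. The 4 red bands hold cFos scores in 2 or 3 libraries and at most 1 EYFP score each (86.4 and 59.52), and the 4 grey bands on the right hold scores in all 6 lists.

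The cFos-leaning regions lay about as far from commonly called regions as other regions did. The median gap to the nearest region called in all 6 lists was 71226.5 bp, against 71290 bp for all other regions not called in all 6, 75422 bp in the EYFP direction and 53894 bp between the common regions themselves. Mixed choices had medians of 62838 to 80742 bp. A common region lay within 10 kb for 204 of the 2412 (8.46%), against 8.23% of the other regions, 6.51% in the EYFP direction and 6.32% to 9.05% in mixed choices. No common region lay within 100 kb of the midpoint for 975 (40.4%). Measured by gap, a common region lay within 100 kb of 60.0% of the cFos-leaning regions and of 60.3% of the other regions. Regions with a weak EYFP peak had a shorter median gap, 64617 bp, than those without, 75720.5 bp. Those called by cFos replicates 1 and 3 alone had the shortest among the call patterns, 63241 bp, and those called by replicates 1 and 2 alone the longest, 78754.5 bp.

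**Figure D5:**
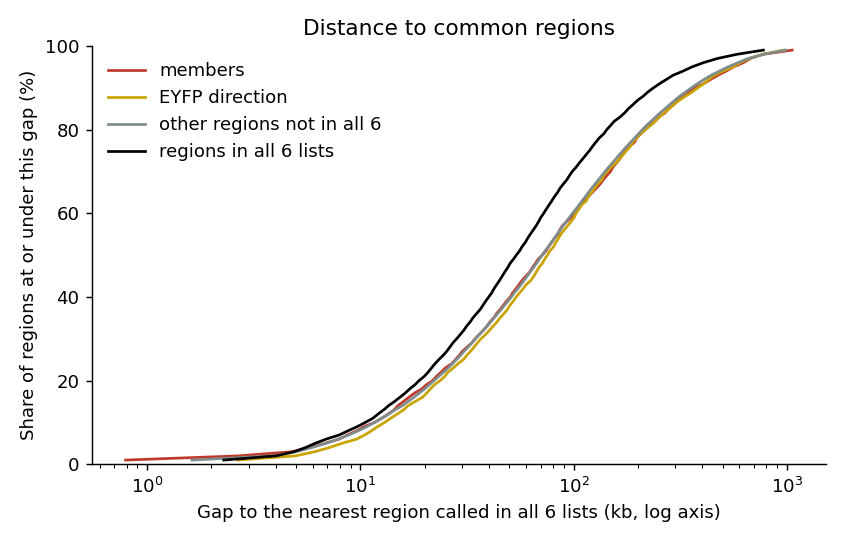
Cumulative share of regions (%) against the gap to the nearest region called in all 6 lists (kb, log axis). The curve of the cFos-leaning regions (red, median 71226.5 bp) runs with that of the other regions (grey, 71290 bp), beside the EYFP direction (yellow, 75422 bp), and over most of its length to the right of the common regions (black, 53894 bp).

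Few of the regions adjoined a common region. The nearest were chr8:8621893-8622305, 19 bp from a common region, chr18:67234544-67235131 at 31 bp and chrX:133401567-133402033 at 57 bp. The first scored 61.1 and 63.79 in cFos replicates 1 and 2 and had no EYFP peak. The second was called in all 3 cFos lists (90.33, 84.34 and 108.84) and had weak peaks in all 3 EYFP libraries (51.43, 70.54 and 60.67). The third had weak peaks in EYFP replicates 2 and 3. Within 1 kb of a common region lay 27 cFos-leaning regions (1.12%), against 12 in the EYFP direction (0.449%) and 0.760% of the other regions. Any EYFP call within 1 kb was found beside 4.68% of them, inside the mixed range of 3.33% to 6.26%.

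At the far end, 27 of the regions (1.12%) lay more than 1 Mb from a common region, against 0.966% of the other regions and 0.899% in the EYFP direction. The farthest was chr17:60442420-60442888 at 1894429 bp, followed by chrX:84774440-84774886 at 1751463 bp and chr3:43586981-43587320 at 1592363 bp. All 3 were called in cFos replicates 2 and 3 alone. None of them had an EYFP peak, and their scores ran from 52.87 to 85.5 in replicate 2 and from 73.52 to 135.77 in replicate 3.

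Common regions close to the cFos-leaning ones did not rank higher in cFos libraries. For the 211 common regions within 10 kb of a cFos-leaning region, the median percentile was 69.3, 70.8 and 68.9 in cFos replicates 1 to 3 and 72.6, 71.5 and 72.0 in EYFP replicates 1 to 3. All common regions had medians of 76.8 to 77.6 in the 6 libraries. Beside the EYFP direction, 176 common regions had medians of 73.1, 70.2 and 71.4 in cFos and 70.6, 69.9 and 70.1 in EYFP libraries. On this measure every cFos library was below every EYFP library near the cFos-leaning regions, by small margins that were not tested.

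The regions were scattered and formed few tight groups. Another member lay within 10 kb for 86 of the 2412 (3.57%), as 43 pairs on 17 chromosomes and no larger group. In 37 of the pairs no other merged region lay between the 2 members, 1 pair had a common region between them and 4 had a region with an EYFP call. The EYFP direction formed 41 pairs. Mixed choices formed 8 to 23, but they held fewer regions. Per 1000000 possible pairs the cFos-leaning regions had 14.8 within 10 kb, against 11.5 in the EYFP direction and 8.13 to 25.3 in mixed choices, so the number of close pairs was inside the mixed range once their number was allowed for. The share within 10 kb was 2.12% without cFos replicate 1 and 1.38% without cFos replicate 2, where a region had to be called in both other cFos lists.

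In the 3 pairs of shortest total span (988, 1217 and 1471 bp), the libraries that called the 2 members differed. At chr4:10063991-10064463 and chr4:10064519-10064978 the members were 55 bp apart. The first was called in cFos replicates 1 and 2 (74.65 and 52.68). The other was called in all 3 (54.93, 74.65 and 75.23) and had weak peaks in all 3 EYFP libraries (56.4, 64.2 and 51.68). At chr17:59215511-59216133 and chr17:59216221-59216727, 87 bp apart, replicate 2 called the first only and replicate 1 the other only, while replicate 3 called both. On chromosome 11, chr11:41446034-41446456 (94.25, 116.77 and 129.74) and chr11:41447195-41447504 (55.78 and 94.58 in replicates 2 and 3) were 738 bp apart. Neither the chromosome 17 nor the chromosome 11 pair had an EYFP peak.

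With gaps of up to 100 kb allowed, 609 of the regions (25.2%) fell into 269 groups, of which 53 held 3 or more, against 662 regions (24.8%), 300 groups and 48 in the EYFP direction. The largest held 5 members, and there were 4 of them. One, chr3:151108834-151334009, contained 7 merged regions in all, none of them common, and 3 of its 5 members had weak peaks in EYFP replicate 2 (88.89, 82.69 and 76.03), of which the second also had one in EYFP replicate 1 (55.51). On chromosome 10, 5 members between 90058909 and 90204041 were all called in 2 cFos lists, and 4 of them in replicates 1 and 3.

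The second chromosome 10 group, from 90462628 to 90788810, had the fewest weak EYFP peaks of the 4. Its only one, of 50.24 in EYFP replicate 2, lay at chr10:90692177-90692573, and 4 common regions fell inside the group. Its members called in all 3 cFos lists were chr10:90555451-90555987, with 81.51, 80.18 and 164.58 in cFos replicates 1 to 3, and chr10:90788203-90788810, with 58.99, 95.74 and 172.99. The other 3 members were called in 2 cFos lists. The chromosome 15 group, from 25691279 to 25925730, held the widest of these 20 members, chr15:25691279-25692662 (1384 bp), with cFos scores of 81.13, 189.89 and 146.83 and weak peaks of 58.02 and 55.29 in EYFP replicates 2 and 3.

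By chromosome, the regions were most frequent on chromosomes 3, 16, 10 and 18 and least on 7, 19, 17 and X. They made up 6.52% of the merged regions of chromosome 3, 6.47% of chromosome 16, 6.32% of chromosome 10 and 6.30% of chromosome 18, but 2.57% of chromosome 7, 2.57% of chromosome 19, 3.27% of chromosome 17 and 3.86% of chromosome X. In the EYFP direction chromosomes 3, 16, 10 and 18 had 5%, 4.42%, 5.39% and 5.94%. Chromosomes 7, 19, 17 and X had 4.72%, 5.36%, 5.08% and 5.78% in that direction, against 5.54% over all chromosomes. As a share of all the cFos-leaning regions, chromosome 3 (9.62%) and chromosome 16 (4.19%) were above all 18 mixed choices, chromosome 7 (1.74%) and chromosome 8 (4.31%) below them, and the other 16 chromosomes inside the mixed range. The margins were small, the highest mixed values being 9.24% and 4.18% on chromosomes 3 and 16 and the lowest 1.97% and 4.69% on chromosomes 7 and 8.

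For chromosomes 3, 7 and 16, but not for chromosome 8, these shares were set beside those of the whole lists. Chromosome 16 held 3.27%, 3.16% and 3.29% of the 23986 peaks in cFos replicates 1 to 3 and 3.04%, 3.02% and 2.96% in EYFP replicates 1 to 3, so the groups did not overlap there. On chromosome 3 they did, with 6.96%, 7.81% and 7.46% against 7.22%, 7.04% and 6.80%. On chromosome 7 they overlapped too, with 3.86%, 3.14% and 3.64% against 3.37%, 3.71% and 3.89%. Among the chromosomes where the regions were most or least frequent, chromosome 16 was the only one without overlap. cFos replicate 2 had the highest share of the 6 libraries on chromosomes 3, 10 and 18 and the lowest on chromosomes 7, 17 and 19. On chromosome X, where the regions were few, its share was the highest, and on chromosome 16 it was the lowest of the 3 cFos libraries. Whether the groups overlapped on the remaining chromosomes was not examined. The chromosomes compared were picked by their share of members, which rests on the same calls. The lack of overlap on chromosome 16 is therefore a description only. The part of gene density, base composition or copy number in these shares was not tested.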

How the data were processed

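Peak lists of 6 ATAC-seq libraries, each from its own animal, were analysed (3 EYFP, 3 cFos; groups and replicate numbers from the sample titles). The submitters' processing notes name Bowtie2 and the mm9 build. The deposited lists hold a position, a MACS peak name and a score per peak; the score was made by the authors, is not normalized between libraries, and is printed as a value and compared between libraries by percentile. For the caller's version, threshold, control, duplicate handling and Tn5 offset, the record is: not given in the sources used here.

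Peaks on chromosomes 1 to 19 and X were ranked by score, ties by chromosome and start, and each list was reduced to 23986 peaks. Touching or overlapping peaks were merged (48217 regions, the same number as with bedtools 2.31.1), and 1 bp of overlap counted as a call. Gaps are bases between regions; coordinates are 1-based. Weak peaks are those of the full list below the shared length. Percentiles are ranks within a list. The code was tested on simulated lists. No count model or test was used, since the lists hold no reads and chose the regions; exact 95% binomial intervals over regions served only to decide which percentages counted as moved under an alternative, and none is printed; the 3 animals per group limit the precision.

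The members, named regions and alternatives were chosen with earlier results of these data known. Named were the 10 highest by mean percentile, the 5 highest called in 2 lists, the 3 widest, the 3 tightest groups, the highest weak EYFP peak per library, and the 3 nearest to and farthest from a common region. The chromosome 6 surroundings, the groups within 100 kb, the chromosome 12 neighbours and the regions just outside the limit were picked once their values were known. The gene, promoter and motif steps of the plan were not carried out, as no mm9 reference was used here. Alternatives were list length, overlap, merging gap, peak width, sequence names, tie order and each library left out. Python 3.11.15, numpy 2.4.6, pandas 2.3.3 and matplotlib 3.10.9 were used.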

Additional observations from a re-analysis of the deposited data

Results flagged for a closer look

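Chromosome Y was left out of the report. It was singled out because the cFos-leaning pattern occurred on it and the opposite one did not. With every sequence name kept, 13 of 71 merged Y regions (18.3%) were called in 2 or 3 cFos lists and no EYFP list, 3 of them in all 3 cFos lists, and 0 in the EYFP direction. The equal-length lists held 45, 54 and 38 Y peaks in cFos replicates 1 to 3 and 31, 17 and 23 in EYFP replicates 1 to 3, and 12 Y regions were called in all 6. The difference was not tested.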

How the results depend on the processing

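No paired analysis was possible because none of these values comes from a test. With lists of 11993 peaks there were 1064 members, 222 of them called in all 3 cFos lists; 83.2% had a weak EYFP peak, the median gap to a common region was 126494 bp, 2.26% had another member within 10 kb, and the median width was 616 bp. On the lists as deposited the gap was 65726.5 bp, the width 474 bp and the median difference between libraries left out 15.6 points. Requiring a list to cover 50% of a region moved the gap to 136966 bp. Peaks set to 400 bp gave a width of 456 bp. Another member lay within 2 kb for 0.829% and within 50 kb for 13.5%. Leaving out each library in turn gave 892 to 3116 members (1416, 1011 and 892 without cFos replicates 1, 2 and 3, where both other cFos lists had to call a region). The range was 613 to 653 for those called in all 3 cFos lists (not computed without a cFos library), 29.0% to 51.6% with a weak EYFP peak, 59999 to 73445.5 bp for the gap, 1.38% to 5.10% within 10 kb of another member, and 483.5 to 505.5 bp for the width. Apart from the construction of each setting, the cause was not tested. The EYFP direction held more regions than the cFos direction on equal-length lists (2671 against 2412) but fewer with 11993 peaks (975 against 1064), while it held 4534 against 2349 where 50% cover was required and 5756 against 1984 on the lists as deposited, so which direction is larger, and by how much, depends on the list length and the overlap required. The comparisons at 11993 peaks and 400 bp with mixed choices were added after seeing the data.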
